A study of Mus musculus with 16 samples.

Results

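The 9 laminin chain genes Lama1, Lama2, Lama3, Lama4, Lama5, Lamb1, Lamb2, Lamb3 and Lamc1 were followed in the small intestinal epithelium of the mouse. They were chosen by name, as the entries with these symbols among the 24421 genes counted. No measured value served as a rule of choice, but earlier results of these data were known when the choice was made. All mice were wild type C57BL6/J, aged 6 days (P6) or 36 days (P36), with 2 females and 2 males at each age. A piece of jejunum and a piece of ileum were taken from each of the 8 mice and incubated in EDTA, and the epithelium shaken off each piece gave 1 bulk RNA library, so that P6 jejunum, P6 ileum, P36 jejunum and P36 ileum held 4 libraries each. Replicates 1 and 2 are female and 3 and 4 are male, and a replicate number marks the same mouse in both regions of an age. At P6 the mouse labels begin with L41800 for replicates 1 and 3 and with L42150 for replicates 2 and 4. Every library is whole released epithelium of an unmanipulated mouse, with its crypt and villus cells mixed, and the incubation at P36 could run longer than at P6.

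Laminins are large secreted proteins that each assemble from an α, a β and a γ chain and polymerise into the sheet on which an epithelium sits, the basement membrane. Cells hold on to them through integrins and dystroglycan, and nidogens, perlecan and agrin tie the laminin sheet to type IV collagen. In the intestine both the epithelium and the underlying mesenchyme are known to make laminin chains, with the chains of Lama3 and Lamb3 entering the epithelial trimer of hemidesmosomes and the products of Lama1, Lama2, Lama4, Lama5, Lamb1, Lamb2 and Lamc1 entering the other trimers. Bulk RNA cannot separate fewer cells of a type from less RNA per cell, and mRNA was measured, not protein.

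Total counts per library ran from 12159237 to 25947276, of which the 9 chains held between 566 and 14533 counts. Values are given as CPM, the counts of a gene per 1000000 reads counted on genes after scaling by the TMM factors of edgeR, and levels of different genes are compared only as CPM per kilobase of exon. All 10 epithelial markers examined, among them Epcam, Cdh1 and Vil1, were present in every group, with a summed level of 5126 to 11918 CPM at P6 and of 15736 to 26706 CPM at P36. The summed goblet cell markers were also lower at P6 (1746 to 4182 CPM) than at P36 (8025 to 18886 CPM), and the part of such shifts between epithelial cell types in the age changes of the chains was not tested. P6 ileum replicate 2 carried genes of the intestinal wall. Its Myh11, the smooth muscle myosin heavy chain, stood at 80.5 CPM against 0.0542 to 0.736 CPM in the other 7 P6 libraries, and it had the highest level of the P6 libraries for 7 of 8 smooth muscle, 9 of 10 fibroblast and 7 of 8 endothelial markers. P6 ileum replicate 4 had raised levels of Vim (49.5 CPM) and Fn1 (21.7 CPM), genes of mesenchymal cells. Its fibroblast markers did not move together. Col1a2, Col3a1, Dcn, Pdgfra and Col6a1 were higher in it than in every other P6 library except replicate 2 of the ileum. Col1a1 (1.13 CPM), Lum (0.049 CPM) and Col6a2 (1.77 CPM) were lower in it than in every other P6 ileum library. The summed fibroblast markers were 34.3, 364, 33.6 and 119 CPM in P6 ileum replicates 1 to 4, and 9.67 to 25.7 CPM in the P6 jejunum. The tests of the chains were therefore also run without replicate 2 of the ileum, and for the genes that moved with replicate 4 without both. P6 values given without such a statement, among them most levels and partner genes, include all libraries.

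Of the 9 chains, 7 passed the filter on low counts and were tested among 13429 genes with the quasi-likelihood test of edgeR. A chain passed a comparison when its p-value, adjusted by the Benjamini-Hochberg method over all tested genes, was below 0.05. A log2 fold change (log2 FC) of 1 is a doubling, and SE is its standard error. The regional comparisons divide jejunum by ileum and the age comparisons divide P36 by P6, so that a negative value means higher in ileum or higher at P6. The region-by-age interaction is the regional log2 FC at P6 minus that at P36, so a positive value means a higher jejunum-to-ileum ratio at P6.

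**Figure D1:**
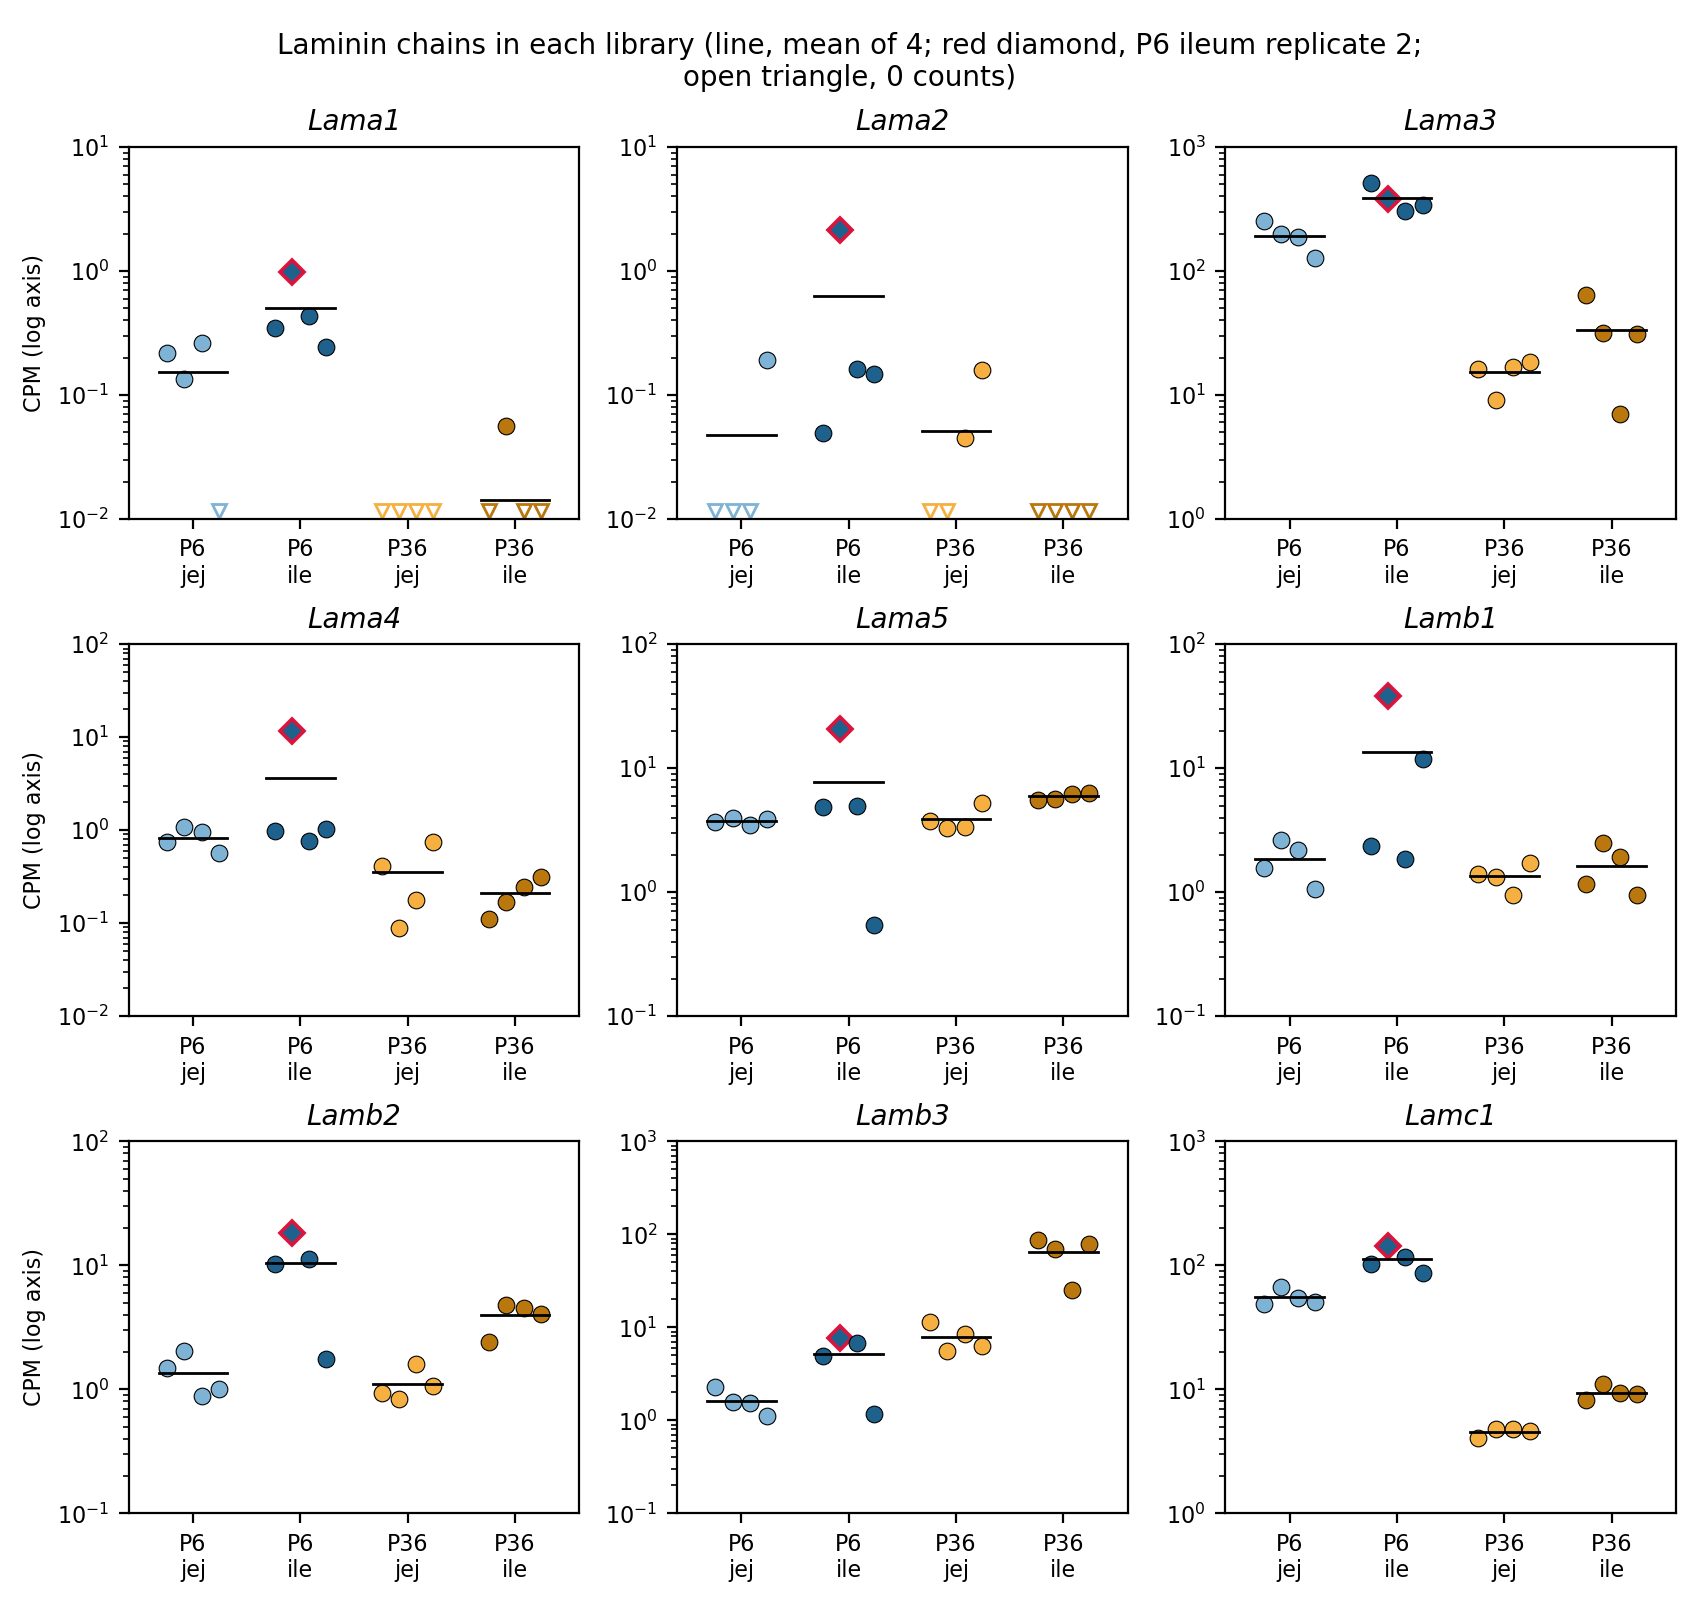
Level of each laminin chain in each of the 16 libraries, in CPM on a log axis that differs between panels, with the mean of each group of 4 as a line. Lama3 and Lamc1 are high in all 8 P6 libraries and low in all 8 P36 libraries, Lamb3 is highest in the P36 ileum, and P6 ileum replicate 2 (red diamond) stands above the rest of its group for 8 of the 9 chains, all but Lama3.

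Lama3 and Lamc1 were the most abundant laminin chains of the neonatal epithelium, and both fell between 11.5-fold and 12.6-fold by P36 in both regions. Per kilobase, Lama3 led in the P6 jejunum with a mean of 18.5 CPM per kb, followed by Lamc1 with 7.27, and no other chain had a mean above 0.388. The P6 ileum had the same leading pair, with means of 37.4 and 14.8 CPM per kb, and in both P6 groups the ranges of Lama3, of Lamc1 and of the next chain did not overlap. At P36 the order changed and Lamb3 came first, with means of 1.91 CPM per kb (jejunum) and 15.7 CPM per kb (ileum). The range of Lamb3 overlapped that of Lama3 in the P36 jejunum, where Lama3 had a mean of 1.47 CPM per kb, and also in the P36 ileum, where Lama3 had a mean of 3.25.

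Lama3 (mm10 chr18:12334024-12583012, plus strand) encodes the α chain of the epithelial trimer. Its level was 254, 198, 187 and 126 CPM in replicates 1 to 4 of the P6 jejunum and 514, 382, 306 and 344 CPM in the P6 ileum. At P36 it was 16.2, 9.18, 17.0 and 18.4 CPM in the jejunum and 64.5, 31.7, 7.02 and 31.2 CPM in the ileum. All P6 libraries lay above all P36 libraries of the same region. With age Lama3 fell 12.6-fold in the jejunum (log2 FC -3.65, SE 0.48, adjusted p = 1.03e-05) and 11.5-fold in the ileum (log2 FC -3.53, SE 0.48, adjusted p = 1.28e-05). The P6 regions did not overlap and the ileum was higher in 4 of 4 mice, yet the regional difference missed the threshold (log2 FC -1.02, SE 0.43, 95% interval -1.94 to -0.09, adjusted p = 0.0986). The P36 regions overlapped, since ileum replicate 3 had the lowest level of all 16 libraries. That regional difference also missed the threshold (log2 FC -1.14, SE 0.44, adjusted p = 0.0956), and without this library it was -1.48 (adjusted p = 0.00494), and the P6 difference of -1.01 then passed too (adjusted p = 0.0158). A fit of the 8 P6 libraries alone gave -1.02 with an adjusted p of 0.0174.

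Lamc1 (chr1:153218922-153332786, minus strand) encodes the γ chain shared by most laminins outside the epithelial trimer, and it had the smallest fitted standard errors of the 7 tested chains. Its level was 48.6, 67.2, 54.9 and 50.8 CPM in the P6 jejunum and 103, 144, 117 and 86.3 CPM in the P6 ileum. At P36 it was 4.06, 4.77, 4.76 and 4.64 CPM in the jejunum and 8.24, 11.0, 9.31 and 9.10 CPM in the ileum. No 2 of the 4 groups overlapped. Lamc1 fell with age 12.1-fold in the jejunum (log2 FC -3.60, SE 0.17, adjusted p = 1.51e-10) and 11.9-fold in the ileum (log2 FC -3.58, SE 0.17, adjusted p = 1.66e-10). It was 2.03-fold higher in the ileum at P6 (log2 FC -1.02, SE 0.16, adjusted p = 0.000172) and 2.06-fold higher at P36 (log2 FC -1.04, SE 0.16, adjusted p = 0.000394). Within single mice the ileum held 1.70 to 2.14 times the jejunal level at P6 and 1.96 to 2.31 times at P36. The difference between the 2 regional ratios was 0.02 on the log2 scale (95% interval -0.44 to 0.48, adjusted p = 0.963), and without P6 ileum replicate 2 the P6 ratio was -0.88 (SE 0.15, adjusted p = 0.000567).

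Lamb3 (chr1:193301994-193343878, plus strand), the β chain of the epithelial trimer, moved against Lama3 with age. It stood at 2.27, 1.56, 1.52 and 1.10 CPM in the P6 jejunum and at 4.94, 7.63, 6.83 and 1.18 CPM in the P6 ileum. At P36 its level was 11.5, 5.52, 8.53 and 6.29 CPM in the jejunum and 86.3, 69.7, 25.2 and 79.9 CPM in the ileum. Every P36 ileum library lay above every other library. Lamb3 rose 4.90-fold in the jejunum (log2 FC 2.29, SE 0.49, adjusted p = 0.00101) and 12.7-fold in the ileum (log2 FC 3.66, SE 0.49, adjusted p = 1.13e-05). The P36 ileum exceeded the P36 jejunum 8.19-fold (log2 FC -3.03, SE 0.47, adjusted p = 0.000367), between 2.96 and 12.7 times within single mice. At P6 the ileum was 3.17-fold higher (log2 FC -1.67, SE 0.49, adjusted p = 0.0197), with ileum replicate 4 inside the jejunal range. This P6 call was lost without ileum replicate 2 (log2 FC -1.41, adjusted p = 0.0577), without jejunum replicate 2 (-1.64, adjusted p = 0.0508) and without jejunum replicate 4 (-1.52, adjusted p = 0.0636), and present without replicates 2 and 4 (-1.88, adjusted p = 0.00632). The region-by-age interaction of Lamb3 was 1.37 (95% interval -0.03 to 2.77, adjusted p = 0.231). Without P6 ileum replicate 2 it was 1.63 (95% interval 0.16 to 3.09, adjusted p = 0.161).

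Lamb2 (chr9:108479862-108490530, plus strand), a β chain known from synaptic, vascular and kidney basement membranes, was, like Lamc1 and Lamb3, higher in the ileum at both ages. Its level was 1.48, 2.05, 0.893 and 1.01 CPM in the P6 jejunum and 10.3, 18.2, 11.3 and 1.77 CPM in the P6 ileum. At P36 it was 0.941, 0.838, 1.62 and 1.07 CPM in the jejunum and 2.43, 4.76, 4.57 and 4.04 CPM in the ileum. The P36 regions did not overlap, while P6 ileum replicate 4 lay within the P6 jejunal range. The ileum was 7.61-fold higher at P6 (log2 FC -2.93, SE 0.52, adjusted p = 0.000589) and 3.52-fold higher at P36 (log2 FC -1.82, SE 0.52, adjusted p = 0.0243), in 4 of 4 mice at each age. Without ileum replicate 2 the P6 value was -2.51 (adjusted p = 0.00204), and without replicates 2 and 4 it was -3.01 (adjusted p = 1.79e-05). The P36 call was lost when P36 jejunum replicate 1, 2 or 4 or P36 ileum replicate 2 or 3 was left out, with adjusted p between 0.0577 and 0.0745. With age Lamb2 fell 2.63-fold in the ileum (log2 FC -1.40, SE 0.48, adjusted p = 0.0217). That call was lost without P6 ileum replicate 2 (-0.98, adjusted p = 0.0962) and without P36 ileum replicate 1 (-1.22, adjusted p = 0.0627). In the jejunum the age difference of Lamb2 was -0.28 (SE 0.52, adjusted p = 0.681). The interaction of Lamb2 was -1.11 (adjusted p = 0.372), and without P6 ileum replicate 4 it was -1.46 (adjusted p = 0.0453).

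Promoter sequence was available for 5 of the 9 chains in RefSeq (GRCm38.p6), namely Lama2, Lama5, Lamb1, Lamb2 and Lamb3. The 250 bases before the start are shown for Lamb2 and Lamb3, the β chains that were higher in the ileum at both ages, and for Lama5, which passed no comparison. Capitals mark matches, on either strand, to any of 5 motifs that were picked after the results were known. Binding sites of HNF4, a nuclear receptor of the intestinal epithelium, hold CAAAGTC at their core. TTTATNG is the core of sites of the caudal homeobox factors. Members of the AP-1 family bind to TGANTCA. Zinc finger factors named after the letters GATA bind to AGATAA. The GC box of many housekeeping genes reads GGGCGG.
Lamb2, chr9:108479612-108479861, plus strand: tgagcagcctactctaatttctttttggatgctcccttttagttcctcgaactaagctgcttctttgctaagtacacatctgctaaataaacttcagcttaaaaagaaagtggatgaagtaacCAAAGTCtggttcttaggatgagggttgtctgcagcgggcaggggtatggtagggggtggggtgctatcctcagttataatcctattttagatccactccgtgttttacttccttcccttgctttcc
Lamb3, chr1:193301744-193301993, plus strand: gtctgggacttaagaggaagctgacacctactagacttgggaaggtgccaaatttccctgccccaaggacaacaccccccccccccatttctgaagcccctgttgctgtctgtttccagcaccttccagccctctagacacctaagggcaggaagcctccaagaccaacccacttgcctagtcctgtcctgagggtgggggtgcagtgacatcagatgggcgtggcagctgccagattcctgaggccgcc
Lama5, chr2:180225860-180226109, minus strand: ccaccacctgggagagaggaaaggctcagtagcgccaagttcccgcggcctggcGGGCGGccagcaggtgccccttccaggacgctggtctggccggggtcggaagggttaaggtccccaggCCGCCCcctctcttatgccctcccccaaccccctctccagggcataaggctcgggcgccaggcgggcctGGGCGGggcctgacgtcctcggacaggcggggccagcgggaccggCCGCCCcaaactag
Lamb2 held 1 match, to CAAAGTC at positions -127 to -121 from the start, a motif found in 3.84% of all 32851 promoter windows of this length. Lamb3 held no match to any of the 5 motifs in this window. The Lama5 window held 4 matches to GGGCGG, which 32.7% of all windows hold, and the Lamb1 window held 2. TTTATNG occurred in 9.81%, TGANTCA in 6.75% and AGATAA in 9.99% of all windows. G and C made up 43.6% of the bases of the Lamb2 window, 58.8% of Lamb3 and 72.4% of Lama5.

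Lamb1, Lama4 and Lama2 were among the 7 chains whose highest level of all libraries lay in the library with genes of the intestinal wall. Lamb1 (chr12:31265294-31329639, plus strand), the widespread β chain of mesenchyme and embryonic tissues, stood at 1.57, 2.63, 2.21 and 1.05 CPM in the P6 jejunum and at 2.37, 38.4, 1.84 and 12.0 CPM in the P6 ileum. It ranged from 0.943 to 1.71 CPM in the P36 jejunum and from 0.950 to 2.50 CPM in the P36 ileum. The 2 high libraries were P6 ileum replicates 2 and 4, those with the highest summed fibroblast markers, and the other 2 lay within the jejunal range. Over all libraries Lamb1 was 7.31-fold higher in the P6 ileum (log2 FC -2.87, SE 0.74, adjusted p = 0.00902) and fell 8.26-fold with age in the ileum (log2 FC -3.05, SE 0.75, adjusted p = 0.00266). Without replicate 2 the regional value was -1.53 (adjusted p = 0.0561) and the age value -1.71 (adjusted p = 0.0181). Without replicates 2 and 4 they were -0.20 (SE 0.43, adjusted p = 0.769) and -0.35 (SE 0.43, adjusted p = 0.509). With the mouse as a block the P6 regional value was -2.02 and did not pass (adjusted p = 0.0639).

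Lama4 (chr10:38965515-39110188, plus strand), the α chain of vessel walls and other mesenchyme, was 0.987, 11.8, 0.759 and 1.03 CPM in the P6 ileum. It ranged from 0.575 to 1.07 CPM in the P6 jejunum, from 0.0882 to 0.746 CPM in the P36 jejunum and from 0.111 to 0.317 CPM in the P36 ileum. All P6 ileum libraries lay above all P36 ileum libraries. Lama4 fell with age in the ileum (log2 FC -4.10, SE 0.92, adjusted p = 0.00138), and by 2.13 on the log2 scale without replicate 2 (adjusted p = 0.00531). The P6 regional difference was -2.13 (adjusted p = 0.0587) with all libraries and -0.15 (SE 0.50, adjusted p = 0.849) without replicate 2, and between -2.46 and -2.43 (adjusted p from 0.0269 to 0.0358) without P6 ileum replicate 1, 3 or 4. In the jejunum the age difference of -1.25 had an adjusted p of 0.246 and an SE of 0.86. Without that ileum library the fitted spread of this gene was smaller (SE 0.50) and the adjusted p 0.0489.

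Lama2 and Lama1 did not pass the filter and are given by their counts. Lama2 (chr10:26981285-27616942, minus strand), the α chain of muscle, had 0, 0, 0 and 4 counts in the P6 jejunum libraries and 1, 50, 3 and 3 in those of the P6 ileum. At P36 it had 0, 0, 1 and 3 counts in the jejunum and 0 in each ileum library. Its 50 counts in P6 ileum replicate 2 were 2.15 CPM, and no other library exceeded 0.192 CPM. Lama1 (chr17:67697265-67822645, plus strand), an α chain of early embryonic and some adult basement membranes, had 5, 3, 5 and 0 counts in the P6 jejunum and 7, 23, 8 and 5 in the P6 ileum. At P36 it had 0 counts in all 4 jejunum libraries and 1 count in the ileum. A count of 0 over the 4 P36 jejunum libraries allows up to 3 counts, or 0.0372 CPM, and the limit for the 0 of Lama2 in the P36 ileum was 0.0412 CPM, by counting error only. Without P6 ileum replicate 2 the P6 ileum held 20 counts of Lama1 and 7 of Lama2.

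**Figure D2:**
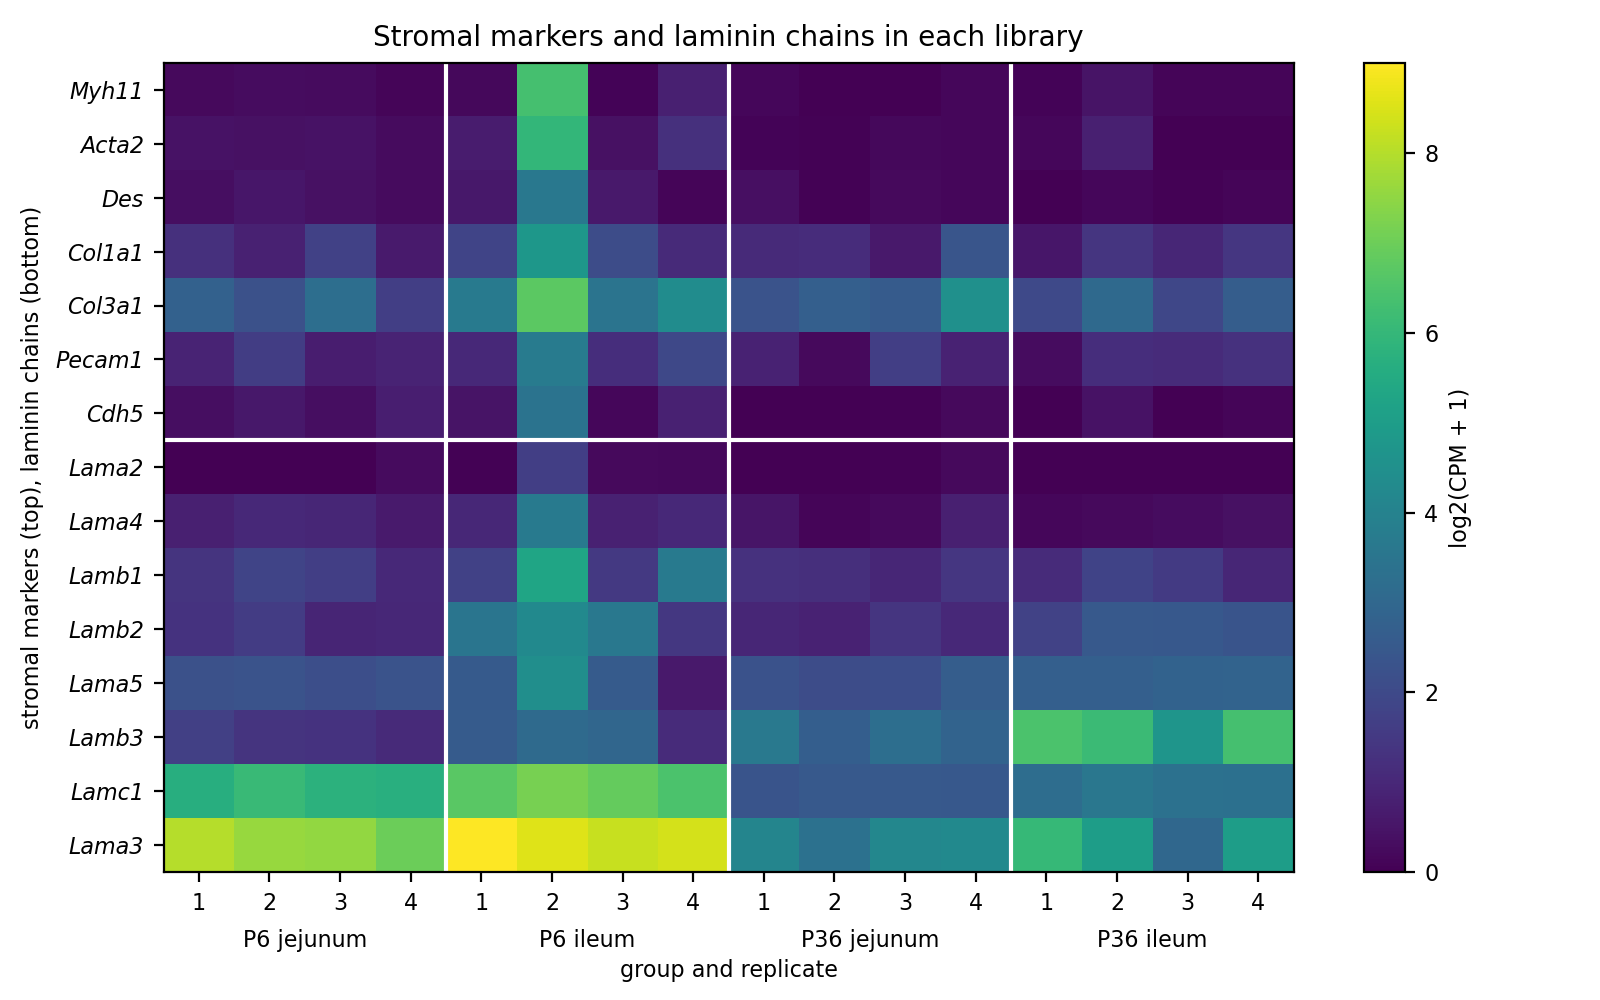
Colour gives log2(CPM + 1) of smooth muscle (Myh11, Acta2, Des), fibroblast (Col1a1, Col3a1) and endothelial (Pecam1, Cdh5) markers above the white line and of 8 laminin chains below it, with 1 column for each library. P6 ileum replicate 2 is the brightest library for all 7 markers and for Lama2, Lama4, Lama5, Lamb1, Lamb2 and Lamc1. Lama3 and Lamc1 are bright in all 8 P6 libraries.

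In P6 ileum replicate 2 Acta2 stood at 61.8 CPM, Col3a1 at 105 CPM and Pecam1 at 12.5 CPM, against at most 1.37, 19.8 and 2.84 CPM in the other P6 libraries, and its summed endothelial markers were 52.9 CPM against 5.04 to 14.4 CPM. At P36 the summed fibroblast markers were 23.1 to 79.5 CPM in the jejunum and 17.1 to 39.6 CPM in the ileum, with Cnn1 at 0 in every P36 jejunum library and Emcn at 0 in every P36 ileum library. The summed smooth muscle markers, 400 to 461 CPM in the P6 jejunum and 203 to 495 CPM in the P6 ileum, were nearly all Mylk outside this library (201 to 456 CPM over the other 7 P6 libraries), where Mylk stood at 260.0 CPM of 495 CPM. The part of cells of the wall in the levels of Lama1, Lama2, Lama4, Lama5, Lamb1, Lamb2, Lamb3 and Lamc1 was not tested. Lama3 showed no such rise, with 382 CPM in this library and 306 to 514 CPM in the rest of its group.

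Lama5 (chr2:180176373-180225859, minus strand), the main α chain of most mature epithelial and endothelial basement membranes, passed no comparison. It ranged from 3.47 to 3.97 CPM in the P6 jejunum, from 3.27 to 5.28 CPM in the P36 jejunum and from 5.58 to 6.33 CPM in the P36 ileum. The P6 ileum held the extremes, with 4.89, 20.9, 4.94 and 0.539 CPM. The library with wall genes was the highest and replicate 4 the lowest of all 16. The jejunal age difference was 0.06 (95% interval -1.23 to 1.35, adjusted p = 0.945) and the P36 regional difference -0.60 (95% interval -1.89 to 0.69, adjusted p = 0.574), although the P36 regions did not overlap and the ileum was higher in 4 of 4 mice. The P6 regional difference was -1.06 (adjusted p = 0.216) with all libraries, 0.12 (adjusted p = 0.866) without replicate 2 and -1.45 (adjusted p = 0.0110) without replicate 4. Without both the spread of this gene fell and that P36 difference, unchanged in size at -0.60, had an SE of 0.16 and an adjusted p of 0.0142. In that fit 4001 of all 13786 genes passed at P36, beside 2163 of 13429 with all libraries. P6 ileum replicate 4 was also the lowest of its group for Lamb2, Lamb3 and Lamc1 and for the adhesion genes Plec (44.5 CPM), Itgb4 (31.0 CPM) and Itga3 (69.3 CPM). It had the lowest summed epithelial markers of all libraries (5126 CPM). Among these markers it was the lowest P6 library for Vil1, Krt8, Krt18, Krt19, Cdx2 and Cldn7. It was the highest P6 library for Cdh1 (867 CPM), and its Epcam (1747 CPM) lay inside the P6 range. What sets this library apart was not tested.

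Over the list, 4 of the 7 tested chains passed at P6, all higher in ileum (Lamb1, Lamb2, Lamb3 and Lamc1), where 25.9% of all tested genes passed, 11.1% higher in jejunum and 14.8% higher in ileum. The median log2 fold change of the 7 chains was -1.67, beside -0.05 for all tested genes. Without P6 ileum replicate 2 there were 2 (Lamb2 and Lamc1), against 24.9% of all genes, with a median of -1.02. At P36, 3 chains passed and all were higher in ileum (Lamb2, Lamb3 and Lamc1), against 16.1% of genes, 8.3% higher in jejunum and 7.8% higher in ileum, and the median was -1.04 beside -0.04.

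With age in the jejunum 3 of the 7 chains passed, with Lama3 and Lamc1 down and Lamb3 up, where 51.6% of all tested genes passed, 24.7% higher at P36 and 26.9% higher at P6. The medians were -0.47 for the chains and -0.01 for all genes. In the ileum 6 passed, with Lamb3 up and Lama3, Lama4, Lamb1, Lamb2 and Lamc1 down, where 55.7% of all genes passed (25.5% higher at P36 and 30.1% higher at P6), and the medians were -3.05 and -0.03. Without P6 ileum replicate 2, 5 passed in the ileum (54.6% of all genes) and 4 in the jejunum (51.9%). The medians of the chains were then -1.71 and -0.47. With the study's minimum absolute log2 fold change of 2 in addition, 2 chains passed at P6 (6.5% of all genes), 1 at P36 (3.6%), 3 with age in the jejunum (16.4%) and 5 with age in the ileum (16.4%). The CPM ranges of the 2 groups compared did not overlap for 2 of the 7 chains at P6 (30.1% of all tested genes) and for 4 at P36 (26.9%). Between the ages they did not overlap for 3 chains in the jejunum (63.8% of all genes) and for 4 in the ileum (44.4%). For the region-by-age interaction, the quasi-likelihood test of edgeR called 0 of the 7 chains and DESeq2 called 0, where 8.69% of all tested genes passed in edgeR, and 2 chains (Lama4 and Lamb1) had an unadjusted p below 0.05. Without P6 ileum replicate 2 the edgeR test called 0 chains, where 1135 of all 13544 genes passed. The unadjusted p was then 0.262 for Lama4, 0.133 for Lamb1 and 0.0316 for Lamb3 (1.63, adjusted p = 0.161). Without P6 ileum replicate 4 the edgeR test called 1 (Lamb2, -1.46, adjusted p = 0.0453).

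**Figure D3:**
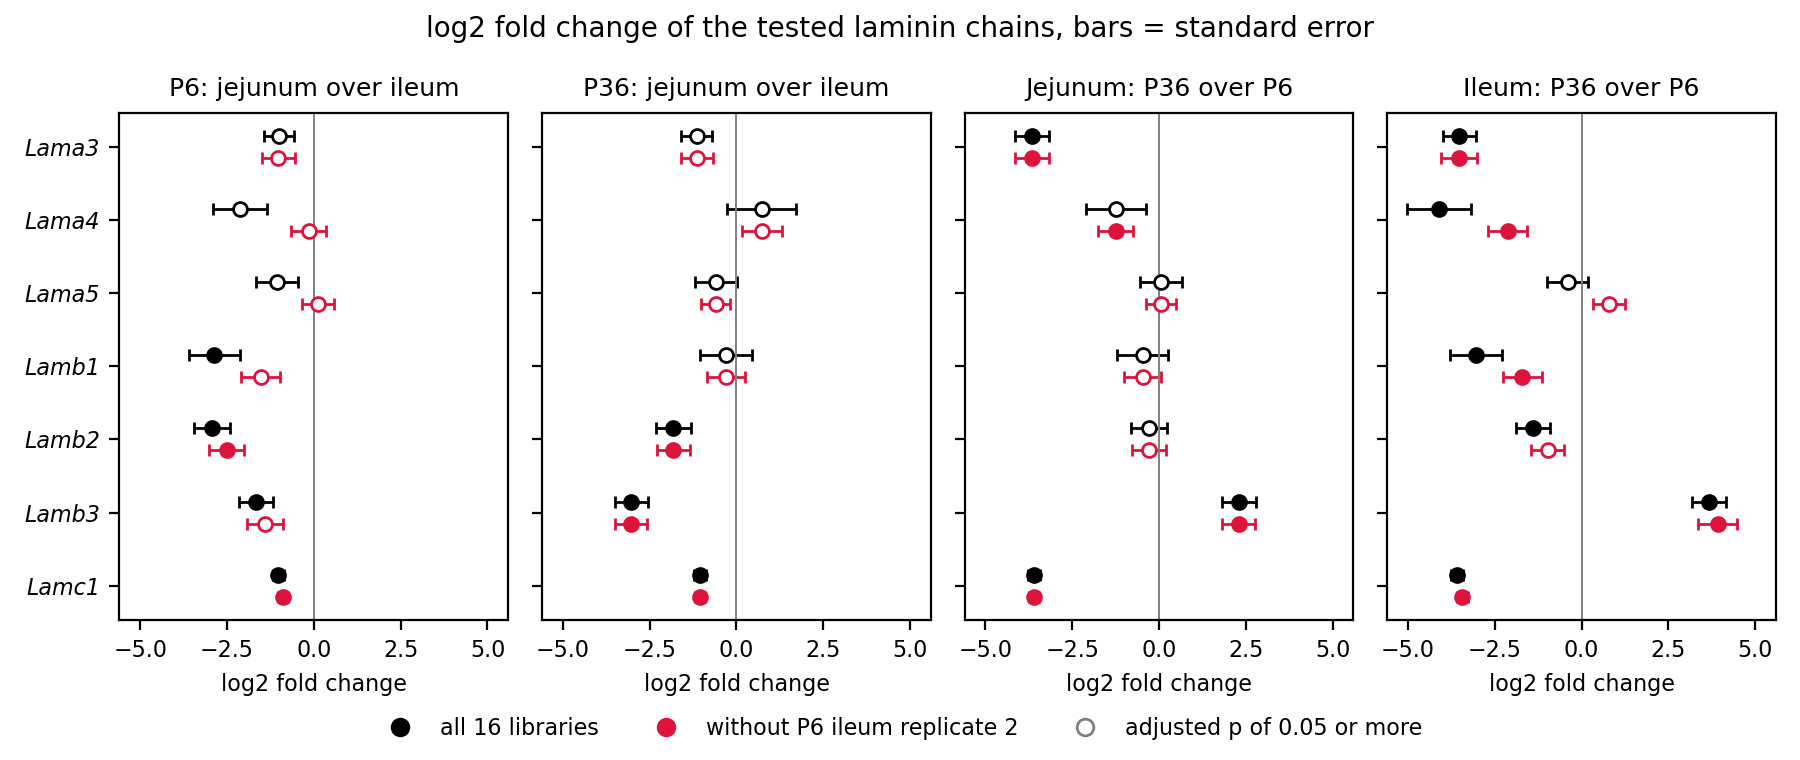
The log2 fold change of the 7 tested chains in each comparison with its standard error, over all 16 libraries (black) and without P6 ileum replicate 2 (red), filled where the adjusted p was below 0.05. Lama3, Lamb2, Lamb3 and Lamc1 move little without that library, although the P6 regional call of Lamb3 and the ileal age call of Lamb2 are lost, whereas Lama4, Lama5 and Lamb1 move toward 0 or past it in the P6 regional comparison.

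The make-up of α and β chain mRNA was described per kilobase. Among β chains, Lamb3 made up 41.1% ± 7.8 (SD, n = 4) of the P6 jejunum and 25.5% ± 14.7 of the P6 ileum, against 80.6% ± 5.0 of the P36 jejunum and 92.4% ± 5.8 of the P36 ileum. Lama3 made up 97.3% ± 0.72 and 96.5% ± 4.3 of the α chains at P6 and 78.1% ± 4.2 and 78.7% ± 17.1 at P36, in jejunum and ileum. In both P36 groups Lama5 was most of the rest.

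Lama3 and Lamb3, whose products both enter the epithelial trimer, differed widely in mRNA level at P6. Trimers were not measured, and the ratio of these mRNA levels does not give the balance of chains within 1 trimer. Per kilobase the Lama3 level was 47.9 times that of Lamb3 in the P6 jejunum (45.0 to 50.9 over the 4 libraries). In the P6 ileum it was 42.0, 20.2, 18.0 and 118 times in replicates 1 to 4. The mean was 49.4 over all 4 libraries, 59.2 without replicate 2 and 26.7 without replicate 4, the library with the lowest summed epithelial markers. At P36 this ratio was 0.804 in the jejunum (0.565 to 1.18) and 0.188 in the ileum (0.112 to 0.301). No P6 library overlapped a P36 library in this ratio.

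**Figure D4:**
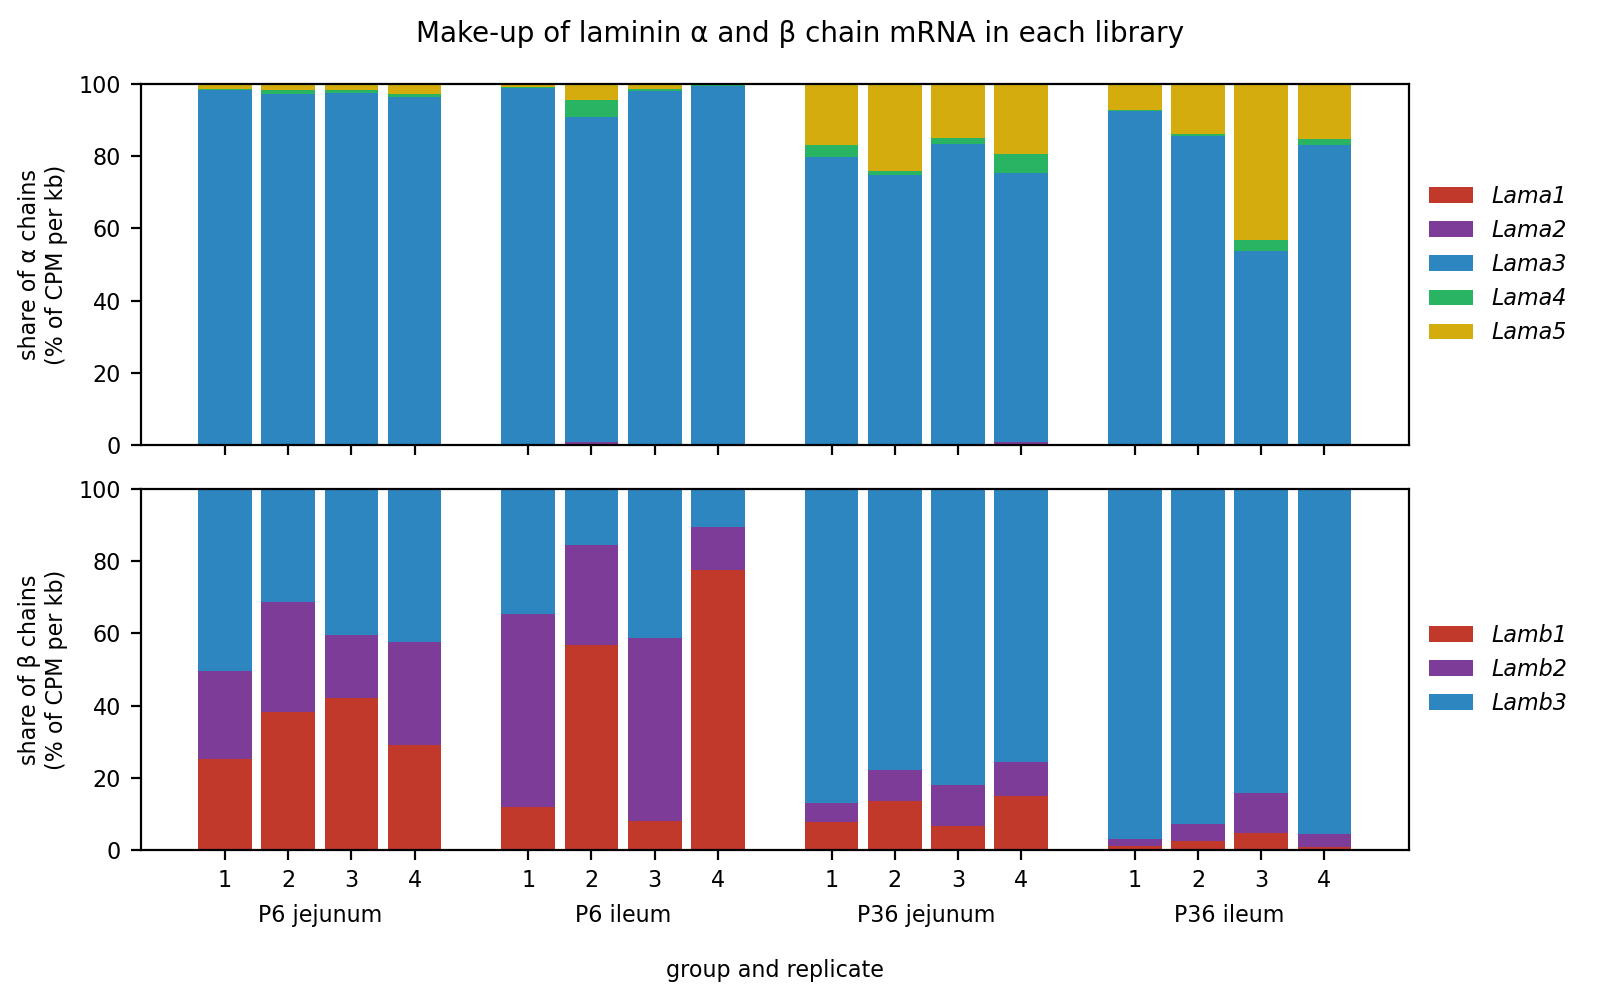
Share of each chain in the summed CPM per kb of the α and of the β chains, with 1 bar for each library and replicates numbered 1 to 4 within a group. Lama3 fills nearly all of the α panel at P6 and Lamb3 takes over the β panel at P36, while the β panel of the P6 ileum differs most between replicates.

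The genes whose pattern over the 16 libraries was most like that of each chain were found from the root mean square (RMS) difference of centred log2 CPM among 13428 genes, as a description. Lamc1 was closest to Mreg (melanoregulin, RMS 0.341) and Glb1 (the lysosomal β-galactosidase, 0.351), with a median of 1.92 over all genes. Lama3 was closest to C2, a complement component (0.526), and Nckap5 (0.588), Lamb3 to Lpcat4, a lysophospholipid acyltransferase (0.605), and Hsd11b2, which inactivates glucocorticoids (0.692), and Lamb2 to Guca2a, the peptide guanylin (0.526), and Mvb12b (0.554). Lamb1 lay next to Sparc (0.498) and the collagen gene Col5a2 (0.563), Lama4 next to Antxr1 (0.606) and Col5a1 (0.622), and Lama5 next to Efemp2 (0.359) and Egfl7 (0.407).

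Genes that work with laminins were taken from a list of 56 receptors, hemidesmosome parts, basement membrane components, laminin-related proteins and processing enzymes, of which 43 were tested. At P6, 16 of them passed (25.9% of all tested genes), with 4 higher in jejunum and 12 in ileum. At P36, 6 passed (16.1% of all genes), with 2 higher in jejunum and 4 in ileum. With age 28 passed in the jejunum (51.6% of all genes), 12 up and 16 down, and 27 in the ileum (55.7%), 11 up and 16 down. The median log2 fold change of the 43 genes was -0.65 at P6, -0.16 at P36, -0.26 with age in the jejunum and -0.47 with age in the ileum. Without P6 ileum replicate 2 the P6 count was 14 (24.9% of all genes) and the median 0.06. Col4a1, Col4a5, Sparc and Adamts2 no longer passed, and Col4a2 and Mmp15 passed in addition. The ileal age count was then 25 (54.6% of all genes), 12 up and 13 down, with a median of -0.0025.

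Of the 13 laminin receptor genes, all tested, 6 rose and 2 fell with age in the jejunum (24.7% and 26.9% of all tested genes), and 5 rose and 0 fell in the ileum in edgeR (25.5% and 30.1%). Itga6, the α subunit of the integrin of hemidesmosomes, went from a mean of 137 CPM at P6 to 296 at P36 in the jejunum (log2 FC 1.11, SE 0.17, adjusted p = 4.58e-05) and from 120 to 335 CPM in the ileum (1.48, SE 0.17, adjusted p = 2.49e-06). Its partner subunit Itgb4 did not pass, with differences of 0.35 (SE 0.44) and 0.14 (SE 0.44). Itga1, a subunit of a collagen and laminin receptor that lymphocytes of the epithelium also carry, rose by 2.97 and 1.94. Summed markers of immune cells ranged from 8.03 to 14.5 CPM in the P6 jejunum, from 24.8 to 36.4 in the P6 ileum, from 6.97 to 60.2 in the P36 jejunum and from 7.80 to 28.3 in the P36 ileum, and their part in this rise was not tested. Itgb1, the β subunit shared by many matrix integrins, was 1.76-fold higher in the P6 jejunum than in the P6 ileum (0.81, SE 0.18, adjusted p = 0.00366) and fell with age in the jejunum (-1.04, SE 0.18, adjusted p = 0.000179). Its region-by-age interaction passed (1.10, SE 0.26, adjusted p = 0.0134). Itga2, another subunit of a collagen and laminin receptor, and the syndecan Sdc1 were higher in the ileum at both ages, Itga2 by 2.83-fold and 2.29-fold and Sdc1 by 2.13-fold and 2.65-fold. Rpsa, a ribosomal protein that also goes by the name of laminin receptor and has many processed copies in the genome, rose by 0.96 and 1.16 with age, and its counts are uncertain for that reason.

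Of the 18 basement membrane partners tested, 9 fell and 3 rose with age in the jejunum, where 26.9% of all tested genes fell and 24.7% rose. In the ileum 12 fell and 3 rose, where 30.1% of all genes fell and 25.5% rose. These ileal counts are with P6 ileum replicate 2 kept. Nid1, a nidogen that binds the γ chain of laminins, had means of 4.27 and 73.2 CPM at P6 and 0.523 and 0.770 CPM at P36, in jejunum and ileum. The P6 ileum exceeded the P6 jejunum 17.1-fold (log2 FC -4.10, SE 0.46, adjusted p = 9.59e-06), and Nid1 fell 8.10-fold with age in the jejunum and 96.8-fold in the ileum. Its region-by-age interaction passed as well (-3.58, SE 0.73, adjusted p = 0.00564; without P6 ileum replicate 2 it was -3.37, adjusted p = 0.0110). Of the 43 partner genes 3 passed the interaction test, where 8.69% of all genes passed, the third being Col4a5, a chain of type IV collagen (-4.73, SE 1.32, adjusted p = 0.0358). That of Col4a5 was lost in 11 of the 16 fits that left out 1 library, P6 ileum replicate 2 among them (-2.98, adjusted p = 0.0616), and with the mouse as a block, where Fras1 passed instead. Nid2, the other nidogen, had means of 79.0 and 60.5 CPM at P6 and 14.9 and 9.25 CPM at P36 in jejunum and ileum, and fell 5.30-fold and 6.54-fold. Fras1 and Frem2, which form a complex beneath embryonic epithelia, fell by 3.11 and 3.66 on the log2 scale in the jejunum, and in the ileum by 4.07 and 4.54, and at P6 they were 2.35-fold and 3.90-fold higher in the ileum. Npnt, an integrin ligand, fell by 4.20 and 3.51. Smoc2, a matricellular protein that also marks intestinal stem cells, rose by 1.62 and 1.92, where the summed stem cell markers, of which it is 1 of 6, were 378 to 810 CPM at P6 and 717 to 1363 CPM at P36. Fbln1, a fibulin, was 6.24-fold higher in the jejunum at P6 and 3.40-fold higher at P36, and Col7a1, the anchoring fibril collagen, was 5.24-fold higher in the P6 jejunum.

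**Figure D5:**
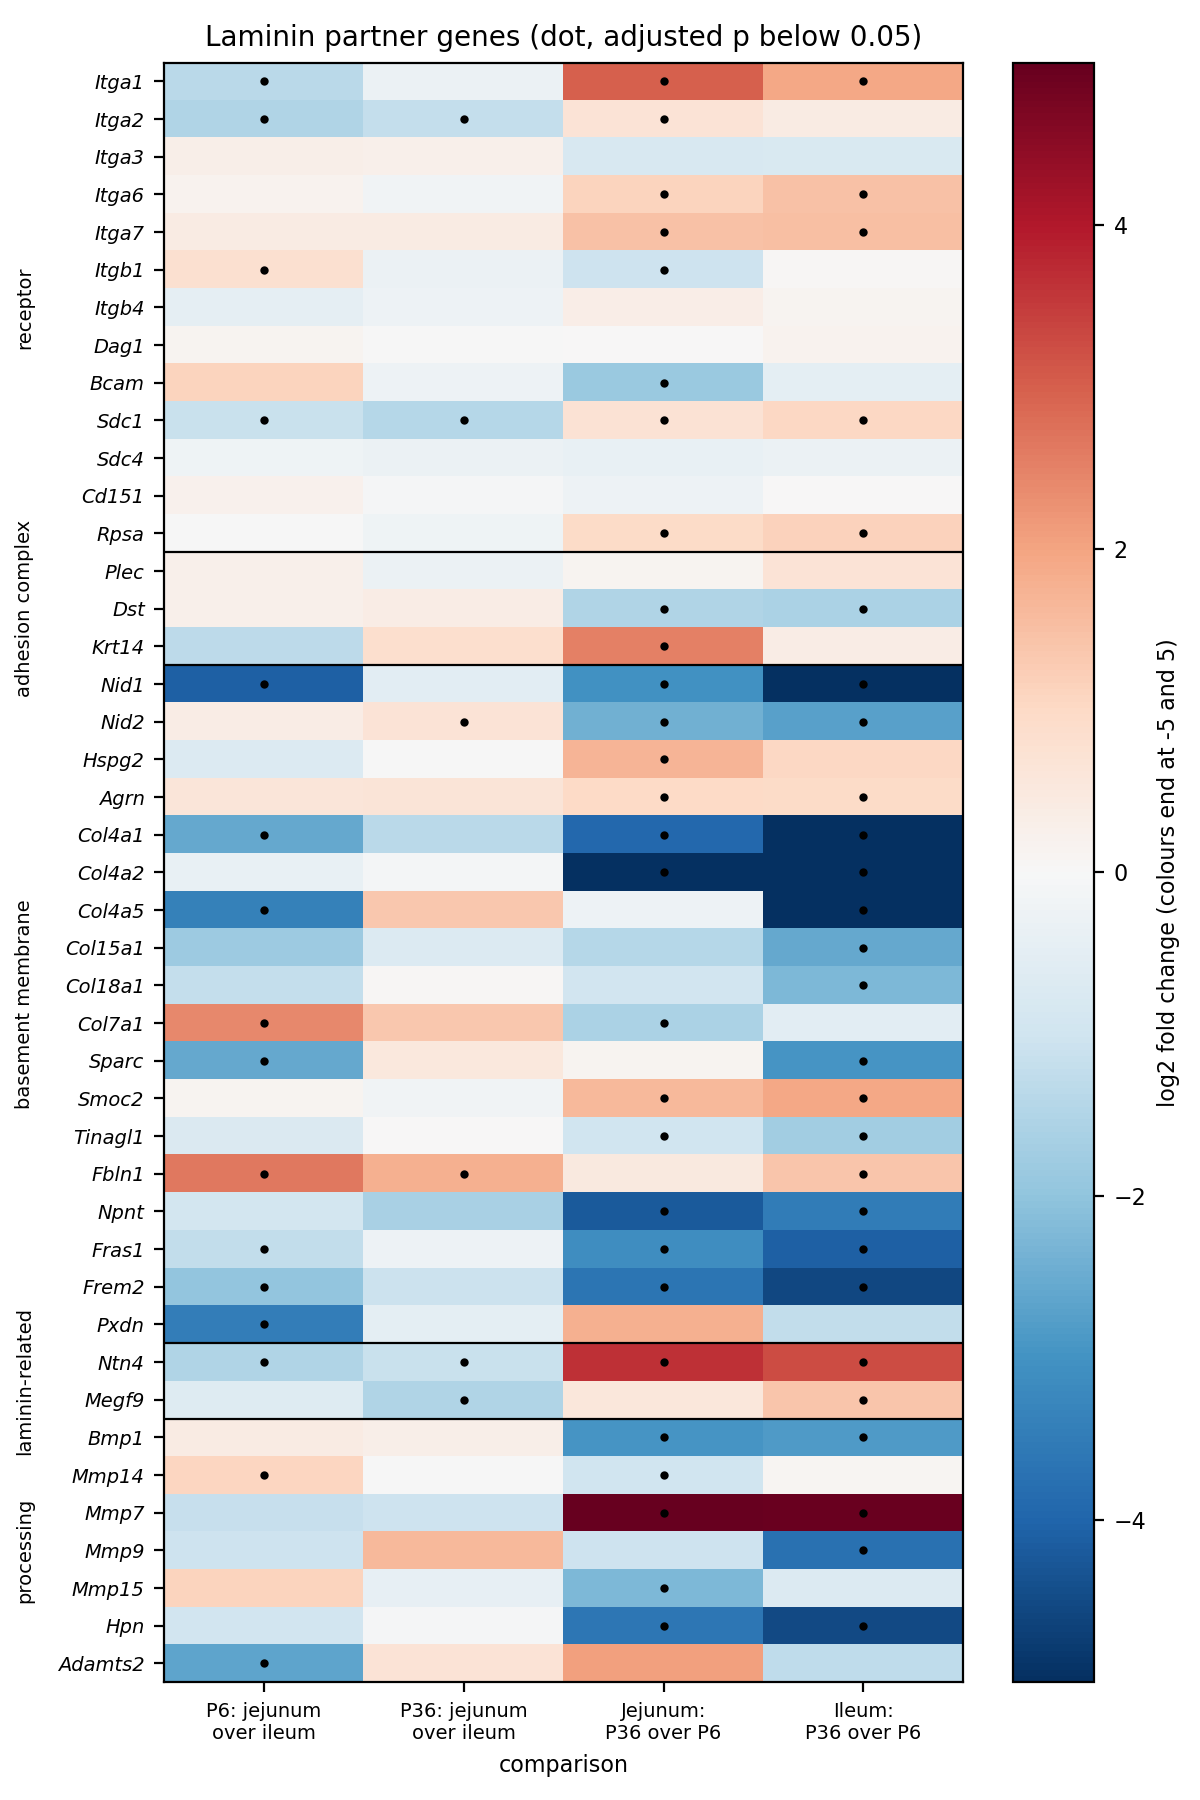
The log2 fold change of the 43 tested laminin partner genes, ordered by role, in the 2 regional comparisons (jejunum over ileum) and the 2 age comparisons (P36 over P6), with a dot where the adjusted p was below 0.05. The basement membrane genes are mostly blue in the age columns and the receptor genes are mostly pale or red, while the P36 regional column holds 6 dots.

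Among laminin-related genes Ntn4, a netrin that binds laminin γ chains, rose with age by 3.65 in the jejunum (SE 0.29, adjusted p = 3.82e-08) and 3.25 in the ileum (SE 0.27, adjusted p = 5.88e-08) and was higher in the ileum at both ages, by 2.85-fold and 2.17-fold. Megf9, which carries laminin-type repeats, was 2.80-fold higher in the P36 ileum. Among the enzymes Mmp7, a metalloproteinase that Paneth cells secrete, rose from a mean of 3.31 to 110 CPM in the jejunum and from 7.34 to 225 CPM in the ileum. It is itself 1 of the 6 Paneth cell markers examined, whose sum ranged from 29.0 to 814 CPM at P6 and from 4418 to 15144 CPM at P36, and their part in its rise was not tested. Hpn, the serine protease hepsin, fell by 3.60 and 4.49. Bmp1, a protease that processes laminin and collagen chains and was named after its values were seen, fell from 75.1 to 9.77 CPM in the jejunum (-2.94, SE 0.52, adjusted p = 0.000179) and from 55.9 to 7.96 CPM in the ileum (-2.82, SE 0.52, adjusted p = 0.000254). Mmp14, a membrane-bound metalloproteinase, was 2.10-fold higher in the P6 jejunum (adjusted p = 0.0348).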

How the data were processed

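Polyadenylated RNA of 16 libraries was sequenced from a stranded kit. By the submitters' processing notes the authors used Trimmomatic 0.38 for trimming, STAR 2.5.3 for alignment to mm10 and, for counting on exons, featureCounts of Subread 1.6.3. The deposited values are raw counts per gene, 1 table per library. From them, genes were filtered with filterByExpr, TMM factors were set and 1 quasi-likelihood model (edgeR 4.0.16, R 4.3.3) was fitted to 4 group means without a block, with p adjusted by the Benjamini-Hochberg method. Levels per kilobase used the exon lengths in the tables. The exons of the 9 chains overlapped 0 exons of other genes. Same-numbered libraries of an age came from 1 mouse, and their deviations from the group means correlated with r of 0.157 to 0.391. The 4 mice per group are biological replicates.

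Alternatives were DESeq2 1.42.0, other scalings and filters, sex as a covariate, a robust prior, the mouse as a block, the 8 libraries compared alone, the study's minimum absolute log2 fold change of 2, and each library left out. Leaving out P6 ileum replicates 2 and 4 together was chosen after seeing the data. These are the P6 ileum libraries of the mice with labels beginning with L42150, and the jejunum libraries of the same mice were kept. In the P6 jejunum the summed Paneth cell markers were 814, 45.2, 575 and 29.0 CPM in replicates 1 to 4. What the label prefix stands for is not given, and its part in these results was not tested. Simulated counts with 100 2-fold and 100 4-fold changes gave back 54 and 90 in the P6 regional comparison (13236 genes), 52 and 84 at P36 (13234), 50 and 95 with age in the jejunum (13266) and 39 and 94 with age in the ileum (13257).

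Partner genes named are the 5 with the smallest adjusted p in each direction of a comparison. Other partner genes are named where they bear on a result given (Itgb4, Itga3, Plec, Rpsa, Col4a1, Col4a2, Sparc, Adamts2, Mmp15, Bmp1, and Sdc1 at P6), chosen after their values were seen. The members and lists were chosen with earlier results of these data known. One laminin-related gene is not reported here and was left out of the partner list and its counts.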

Additional observations from a re-analysis of the deposited data

Results flagged for a closer look

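In each group of 4 libraries the highest or lowest library was compared with the rest by Dixon's criterion. This was done for the 9 chains and for 4 marker lists, 52 groups in all. Its chance rate of about 1 in 20 holds for normally distributed values, so the number flagged by chance is not known for these counts. A group with counts in only 1 library is always set apart, and a group at 0 throughout never is. The criterion set apart 7. Lama2 at 2.15 CPM and Lama4 at 11.8 CPM stood out in P6 ileum replicate 2, where the next libraries had 0.163 and 1.03 CPM, and so did the summed endothelial markers of the same library (52.9 CPM, next 10.9 CPM). The summed epithelial markers of P6 ileum replicate 4 were low (5126 CPM, next 7274 CPM). The summed fibroblast markers of P36 jejunum replicate 4 were high (79.5 CPM, next 25.1 CPM). Lama2 in P6 jejunum replicate 4 (0.192 CPM, from 4 counts) and Lama1 in P36 ileum replicate 2 (0.0567 CPM, from 1 count) stood out against libraries at 0.

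The regional difference changed with age, by the interaction test of edgeR (Benjamini-Hochberg adjusted p below 0.05), for 3 of the 43 partner genes, where 8.69% of all tested genes passed. The interaction was 1.10 on the log2 scale for Itgb1, -3.58 for Nid1 and -4.73 for Col4a5, a chain of type IV collagen. For Col4a5 it was -2.98 without P6 ileum replicate 2, with an adjusted p of 0.0616. The part of the cells of the wall in these values was not tested.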

How the results depend on the processing

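Of the results given for chains and partner genes, most kept their direction and their side of the threshold under the alternatives. With the study's minimum absolute log2 fold change of 2 in addition, 2 chains passed at P6 and 1 at P36, and of the partner genes 8 passed at P6, 0 at P36 (6 without the minimum, by edgeR in both cases), 14 with age in the jejunum and 16 with age in the ileum. The interaction of partner genes was called 5 times by DESeq2 and 5 times without P6 ileum replicates 2 and 4. The latter fit also called 10 partner genes at P36. Of all 13786 genes it passed 1561 in the interaction and 4001 at P36. With all libraries 1167 and 2163 of 13429 genes passed. With each library left out in turn, the chains that passed at P6 numbered 2 to 6, those in the interaction 0 to 1 and the partner genes in the interaction 2 to 6. The fit with the mouse as a replicate block called 3 chains at P6 (Lamb1 lost, -2.02), 3 at P36 and 0 in the interaction, and 15, 7 and 3 partner genes; it changed no other call of a chain. Small differences changed sign. The interaction of Lama3 was -0.083 with library totals in place of TMM, -0.015 with sex as a covariate, -0.15 with the block and -0.40 to 0.47 with a library left out, and that of Lamc1 was -0.12 with library totals and -0.088 to 0.16 with a library left out. For Lama5 the interaction was 0.28 with the block, 0.18 without P6 ileum replicates 2 and 4, and -0.85 to 0.72 with a library left out. Its P6 regional difference ranged from -1.45 to 0.12, its jejunal age difference from -0.12 to 0.20 and its ileal age difference from -0.79 to 0.78 (0.27 without both libraries). The interaction of Lamb1 was 0.092 without both. Fits of the 8 libraries compared alone lost Lamb1 (-2.88, adjusted p = 0.0608) and Lamb3 (-1.68, adjusted p = 0.0544) at P6 and Lamb2 with age in the ileum (-1.38, adjusted p = 0.0757). DESeq2 called Lama3 at P36 (-1.15, adjusted p = 0.0438) and gave no adjusted p for Lama4 with age in the ileum. Library totals without TMM shifted the median of all genes by -0.286 at P6, -0.139 at P36 and -0.149 in the interaction. The share of higher calls then went from 42.9% to 18.0%, from 51.5% to 37.8% and from 42.3% to 24.2%, and Lama3 (-1.30, adjusted p = 0.0208) and Lama4 (-2.41, adjusted p = 0.0263) passed at P6. The causes were not tested. Depth limited Lama1 and Lama2, which had at most 50 counts in a library, and changes of 2-fold were often missed in simulated counts.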
